A study of Mus musculus with 12 samples.

Results

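Histone marks at 6 genes of insulin-like growth factor (IGF) signalling were compared between Kmt2d mutant and WT mouse melanoma cells. The genes were Igf1, Igfbp2, Igfbp5, Igf1r, Irs1 and Irs2, and the peaks described are all ChIP-seq peaks within 50 kb of the gene spans on the mouse build mm9, a peak near a pair of genes being given to the nearer. This gave 212 of the 173601 peaks in 10 deposited lists. The choice of peaks used gene positions and no measured value, while the genes were chosen with earlier results of these data known.

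The ligand Igf1 activates the receptor tyrosine kinase Igf1r at the cell surface. The binding proteins Igfbp2 and Igfbp5 hold IGFs outside the cell and limit or modulate their access to the receptor. The adaptors Irs1 and Irs2 are phosphorylated by the activated receptor and relay its signal to PI3 kinase and AKT. KMT2D methylates histone H3 at enhancers, where it lays down H3K4me1. H3K4me3 stands at promoters, and H3K27ac at those promoters and enhancers that are active. H3K79me2 follows transcription into gene bodies, and H3K27me3 is the mark of Polycomb repression.

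The mutant cells came from mice with both Kmt2d copies conditional (KMT2DL/L) and the WT cells from mice with intact Kmt2d (KMT2D+/+). Both genotypes carried the other alleles of the iBIP model on a background mixed from FVB and B6. These are the conditional PTENL/L and INK/ARFL/L, a TetO-BRAFV600E transgene switched on by doxycycline through Rosa26-rtta, and Tyr-CreERT2, a tamoxifen-activated Cre under the tyrosinase promoter of melanocytes. Mice of both genotypes received doxycycline, and 4-hydroxytamoxifen (1 uM) was put on the ears, where tumours arose. The cells isolated from these mice were grown in culture. The age of the mice is not given in the sources used here. Each genotype had 1 library for each of 5 marks and an input library that was not used here. All lists of a genotype carry a single sample code, so the genotype and the particular cells sampled cannot be told apart. No comparison of the genotypes has replicates, so none was tested and none has a replicate check. Read depth is unknown.

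Across whole lists, the mutant over WT ratio of covered length was 0.300 for H3K4me1, 1.02 for H3K27ac, 1.05 for H3K4me3, 0.824 for H3K79me2 and 1.36 for H3K27me3. Values at the IGF genes are set beside these ratios, and beside 100 kb windows tiled across the genome. A peak that is missing from a list did not pass the authors' threshold there, which does not show that the mark was absent. Neither the loss of Kmt2d nor the melanocyte identity of the cells was checked here, since no gene annotation on mm9 was used.

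At their 5′ ends the 6 genes had different combinations of marks, and these were mostly the same in both genotypes. Within 2 kb of the 5′ end, Igf1r and Irs2 carried H3K4me3, H3K27ac and H3K79me2 with no H3K27me3 in the mutant as well as in WT, and Irs2 also had H3K4me1 in both. Igf1 and Igfbp5 carried H3K4me3 together with H3K27me3, a combination called bivalent, with no H3K27ac. Igfbp5 had H3K79me2 there in WT alone. Igfbp2 had H3K27me3 alone. Irs1 carried H3K4me3 with H3K27me3 and H3K79me2 in both genotypes, and H3K27ac in WT. H3K27me3 was thus present at the 5′ end of 4 of the 6 genes in the mutant and 4 in WT, and H3K4me3 with H3K27me3 at 3 in the mutant and 3 in WT.

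The 250 bases before the start of transcription are shown for the pair of genes with the most CG pairs and the pair with the fewest, because CpG content is known to go with Polycomb and H3K4me3 marking in mammals. The sequences are those of RefSeq on GRCm38.p6 and all 6 genes were matched. They run 5′ to 3′ in the direction of transcription, with CG in capitals. That of Igf1r is chr7:67952007-67952256 on the plus strand, that of Irs2 chr8:11008930-11009179 on the minus strand, that of Igfbp5 chr1:72874866-72875115 on the minus strand and that of Igf1 chr10:87860861-87861110 on the plus strand. These coordinates belong to another build than the peaks.
Igf1r: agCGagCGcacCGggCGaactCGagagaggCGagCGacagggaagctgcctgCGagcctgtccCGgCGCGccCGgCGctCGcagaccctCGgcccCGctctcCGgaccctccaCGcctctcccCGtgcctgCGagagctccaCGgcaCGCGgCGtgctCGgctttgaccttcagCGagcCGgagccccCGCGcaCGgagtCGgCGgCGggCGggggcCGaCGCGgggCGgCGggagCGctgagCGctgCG
Irs2: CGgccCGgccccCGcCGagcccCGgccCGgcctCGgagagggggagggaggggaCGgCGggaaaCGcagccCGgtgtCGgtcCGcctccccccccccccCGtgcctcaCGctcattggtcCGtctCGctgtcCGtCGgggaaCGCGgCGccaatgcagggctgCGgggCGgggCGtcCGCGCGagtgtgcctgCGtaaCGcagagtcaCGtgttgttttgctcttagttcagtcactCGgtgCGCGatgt
Igfbp5: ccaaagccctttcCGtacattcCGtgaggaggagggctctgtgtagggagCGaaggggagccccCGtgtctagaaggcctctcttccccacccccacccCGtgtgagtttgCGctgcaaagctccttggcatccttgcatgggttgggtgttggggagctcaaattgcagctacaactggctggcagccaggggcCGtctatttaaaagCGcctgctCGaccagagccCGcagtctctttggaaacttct
Igf1: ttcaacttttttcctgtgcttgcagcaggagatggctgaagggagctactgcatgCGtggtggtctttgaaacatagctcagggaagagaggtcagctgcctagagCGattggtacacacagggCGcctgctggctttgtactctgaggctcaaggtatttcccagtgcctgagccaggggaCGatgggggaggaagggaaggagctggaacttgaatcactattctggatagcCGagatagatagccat

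The Igf1r promoter held 42 CG pairs in these 250 bases, and 99.1% of 32851 RefSeq promoter windows held fewer. Irs2 held 34 (96.5% held fewer) and Irs1 28 (92.4% held fewer). Igfbp5 held 10 (62.2% held fewer) and Igf1 5 (44.4% held fewer), against a median of 6 over all windows. The first of the 2 Igfbp2 windows in the table held 14. The promoters acetylated in both genotypes were therefore the CG-richest of the set. Irs1 came next, and it carried H3K4me3 with H3K27me3 as Igfbp5 and Igf1 did. The bivalent promoters thus ran from 28 CG pairs at Irs1 through 10 at Igfbp5 to 5 at Igf1, the last close to the median. Only bases before the start were counted. The H3K4me3 peak of Igf1 lay inside the gene span, from 0.9 kb in the mutant and from 1.5 kb in WT, so the marked bases were not those counted.

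Of the 30 pairs of gene and mark, 5 had at least 1.5-fold less covered length in the mutant and 5 at least 1.5-fold more, where at least 1000 bp was covered in the larger genotype. The lower ones were H3K4me1 at Igf1r and Irs2, H3K27ac at Irs1, and H3K79me2 at Igfbp5 and Irs1. The higher ones were H3K4me3 at Igf1, and H3K27me3 at Igf1r, Igf1, Irs1 and Irs2. For H3K4me1 the 2 genes that carry it were both on the lower side, as did 85.5% of 100 kb windows across the genome. For H3K27me3 it was 4 of 6 genes on the higher side, against 39.3% of windows. For H3K79me2 it was 2 of 4 genes on the lower side, against 31.7% of windows. For H3K27ac it was 1 of 3 genes on the lower side, against 18.4% of windows, and for H3K4me3 1 of 5 genes on the higher side, against 6.82% of windows. In the other direction no gene passed this limit in any of the 5 marks, against 3.84% of windows higher for H3K4me1, 4.2% higher for H3K79me2, 14.6% higher for H3K27ac, 14.5% lower for H3K27me3 and 6.09% lower for H3K4me3. The windows are shorter than the loci, which span 117 to 382 kb, and with so few genes these shares describe the genes and set none of them apart.

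**Figure D1:**
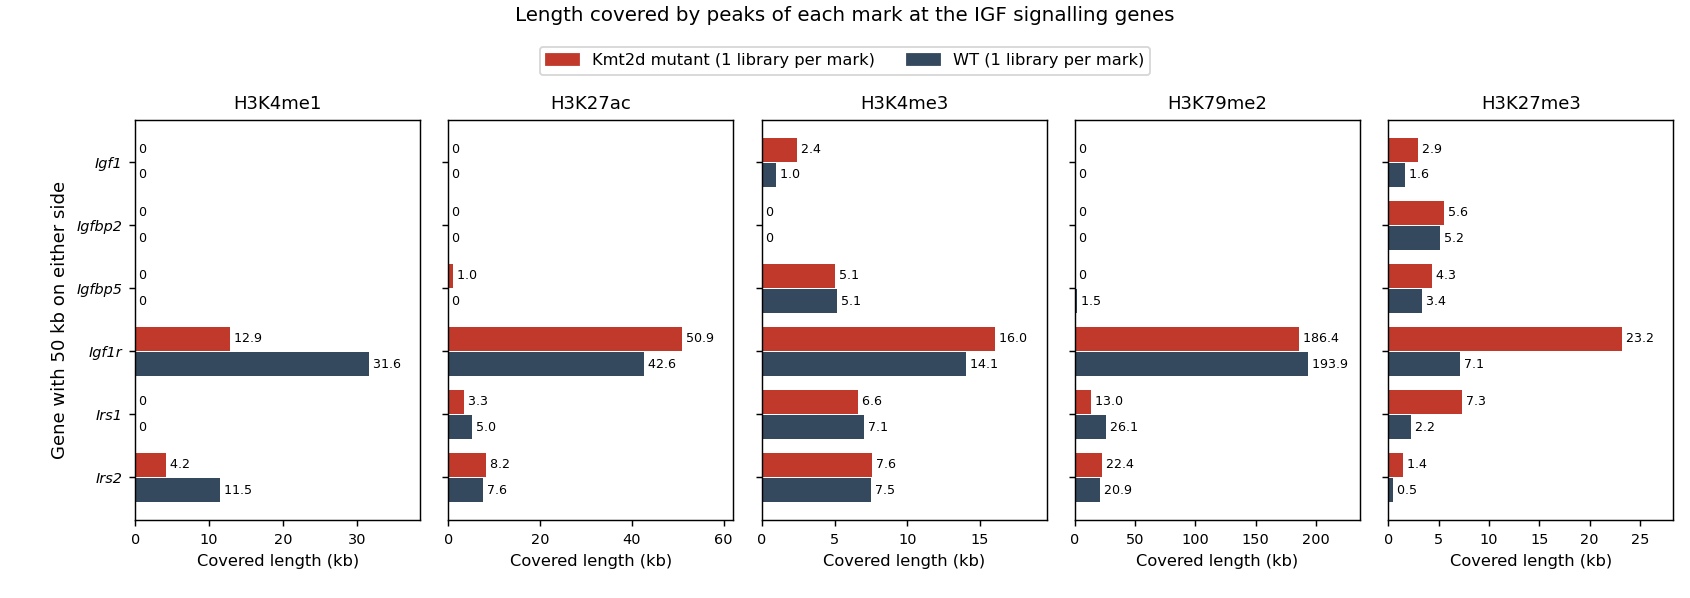
Length covered by peaks (kb, horizontal axes, 1 panel per mark, each with its own scale) at each gene with 50 kb on either side, in Kmt2d mutant cells (red, upper bar) and WT cells (dark, lower bar), 1 library per bar. H3K4me1 is the shorter in the mutant at both genes that carry it, and the largest H3K27me3 length is that of the mutant at Igf1r.

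Igf1, which encodes the ligand, carried no H3K4me1, H3K27ac or H3K79me2 peak in either genotype within 50 kb. H3K4me3 covered 2405 bp in the mutant, in 1 peak on chromosome 10 from 87321853 to 87324257, and 961 bp in WT, in 1 peak from 87322461 to 87323421. The WT peak lay wholly inside the mutant one, and its score of 154 left it out when only peaks scoring from 200 were kept (2405 bp in the mutant, 0 bp in WT). H3K27me3 covered 2936 bp in the mutant, of which 413 bp lay just upstream of the gene, and 1639 bp in WT, in 1 peak at its start. None of these H3K27me3 peaks reached a −log10 q of 5. Inside the H3K4me3 peak, H3K27me3 covered 1670 bp in the mutant and all 961 bp in WT. Both genotypes thus had a small bivalent region at the start of Igf1, and no peak over the rest of the 78 kb gene.

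The binding protein genes lie tail to tail on chromosome 1. Igfbp2 had H3K27me3 over its 5′ end, with 5571 bp in 1 mutant peak from 72868763 to 72874333 and 4424 bp in the WT peak from 72869490 to 72873913. The remaining marks were without peaks there in both genotypes. The H3K27me3 scores of this peak were above 94.1% of the mutant list and 95.7% of the WT list. A second WT H3K27me3 peak of 729 bp lay upstream.

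Igfbp5 had a broad H3K4me3 peak that was nearly the same in both genotypes, with 5058 bp in the mutant from 72916532 to 72921589 and 5143 bp in WT from 72916397 to 72921539. H3K27me3 overlay it, with 4320 bp in 1 mutant peak and 3364 bp in 2 WT peaks. With only peaks of −log10 q from 5, H3K27me3 had 0 bp in the mutant and 2380 bp in WT, the opposite order. The length in which H3K4me3 and H3K27me3 overlapped was 3847 bp in the mutant and 2955 bp in WT. H3K79me2 was listed in WT only, in 2 short peaks of 882 and 638 bp whose −log10 q of 3.96 and 3.99 lay close to the lowest of the WT list, 3.33, and both dropped out with lists of equal number. The mutant had 1 H3K27ac peak of 980 bp, 4.1 kb upstream of the 5′ end and outside the H3K4me3 peak, while the WT list had none within 50 kb. Its score was 172, above 29.6% of the mutant H3K27ac list. Neither binding protein gene had H3K4me1 in either genotype. The authors' score of the H3K4me3 peak was 597 in the mutant and 1510 in WT. No difference is read from this pair of scores, since they come from different lists of unknown depth.

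**Figure D2:**
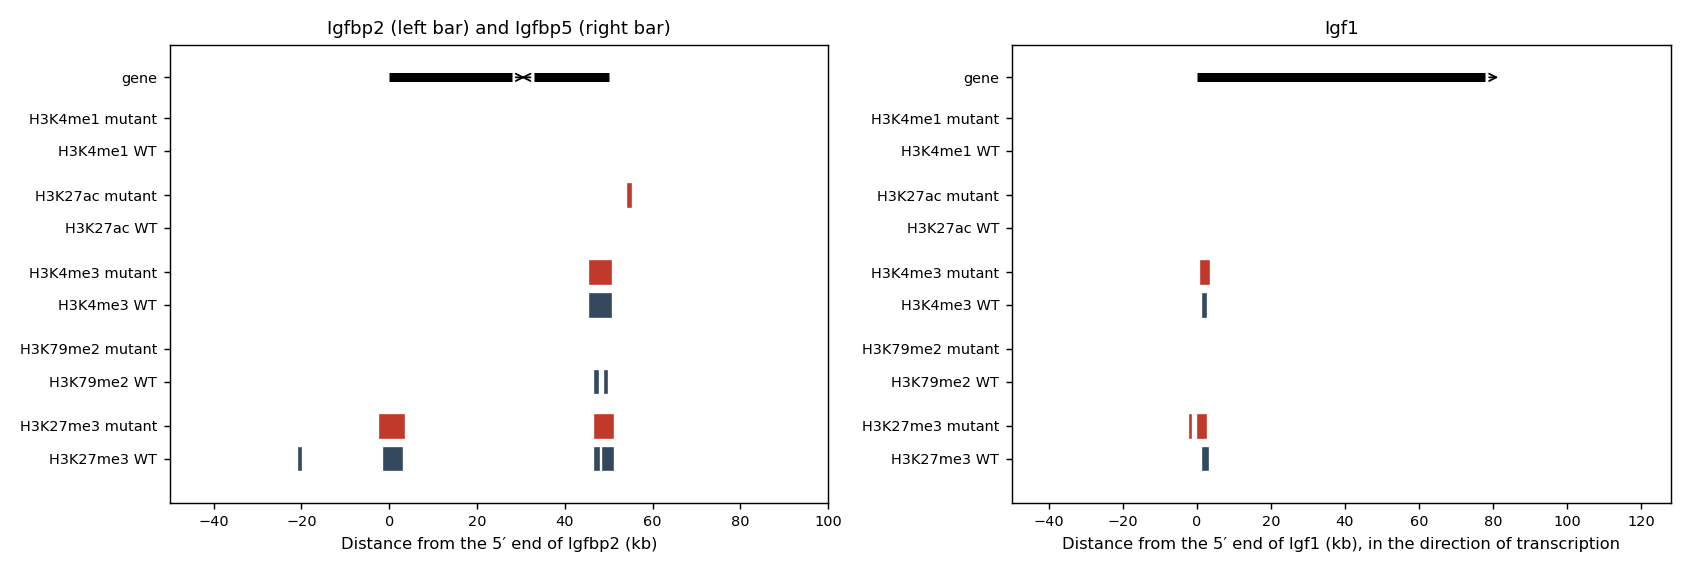
Peaks of the 5 marks at Igfbp2 and Igfbp5 (left) and Igf1 (right), mutant (red) above WT (dark) for each mark, 1 library per row, by distance in kb from the 5′ end of Igfbp2 or Igf1. Black bars are genes and arrows their direction. H3K4me1 rows are empty, and H3K4me3 and H3K27me3 lie over each other at the 5′ ends of Igfbp5 and Igf1 in both genotypes.

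Igf1r, which encodes the receptor, had the most peaks of the genes, with 63 mutant and 67 WT peaks over the 282 kb gene on chromosome 7 and its flanks. It is also the longest of the genes, and these numbers are not corrected for length. H3K79me2 began 0.4 kb inside the gene in both genotypes. It covered 186389 bp in the mutant and 193869 bp in WT, which is 66.1% and 68.7% of the gene. The first peak alone ran for 65234 bp in the mutant and 81971 bp in WT. The last long H3K79me2 peak ended 213.6 kb into the gene in the mutant and 213 kb into it in WT. Beyond it each list had a short isolated peak. That of the mutant, of 388 bp, ended at 226.8 kb, and that of WT, of 1218 bp, at 217.1 kb. H3K4me3 at the 5′ end covered 6827 bp in the mutant and 5908 bp in WT, both with a score of 3100, above 97.3% of the mutant and 94.4% of the WT list. H3K27ac there covered 4646 bp in the mutant and 4014 bp in WT.

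H3K4me1 at Igf1r covered 12883 bp in 8 mutant peaks, against 31560 bp in 19 WT peaks, a ratio of 0.408. All of it lay within the gene. With the WT list shortened to as many of its strongest peaks as the mutant list holds, the lengths were 12883 bp in the mutant and 18736 bp in WT, which is under 1.5-fold. H3K27ac over the same locus covered 50887 bp in the mutant and 42583 bp in WT, a ratio of 1.20. Less H3K4me1 was thus not accompanied by less H3K27ac. Of the 19 WT H3K4me1 peaks at Igf1r, 16 had no mutant H3K4me1 peak, and 10 of those 16 overlapped mutant H3K27ac, while 7 overlapped WT H3K27ac. Of all such peaks in the WT list, 50.1% overlapped mutant H3K27ac and 51.2% WT H3K27ac. Across the 6 genes 84% of the 25 WT H3K4me1 peaks had no mutant peak (exact Clopper-Pearson 95% interval 63.9 to 95.5, counting error only), against 77% of the whole WT list. The share at the IGF genes was therefore close to that of the list.

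**Figure D3:**
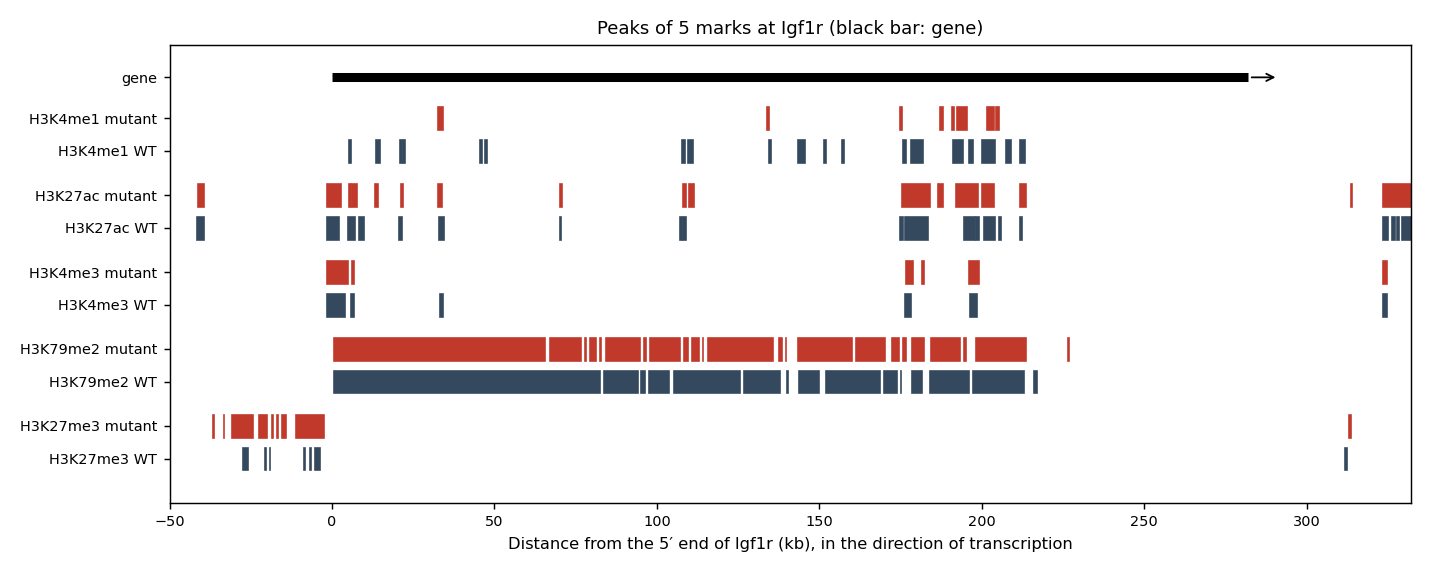
Peaks of the 5 marks at Igf1r, mutant (red) above WT (dark) for each mark, 1 library per row, by distance in kb from the 5′ end of the gene (black bar, arrow in its direction). H3K79me2 runs far into the gene in both genotypes, to 213.6 kb in the mutant and 213 kb in WT, with a short isolated peak beyond in each. WT has more H3K4me1 peaks, and the mutant has longer H3K27ac from 174.7 to 205.9 kb and longer H3K27me3 upstream.

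Joined across gaps of up to 5000 bp, H3K27ac of both genotypes formed 10 stretches at Igf1r, of which 7 lay in the gene, and 9 held H3K27ac in both genotypes. Covered length was greater in the mutant in 7 and in WT in 3. Such stretches were not counted over the whole lists, so this does not set Igf1r apart. The whole H3K27ac lists covered 54.0 Mb in 22343 mutant peaks and 53.0 Mb in 25060 WT peaks, so mutant peaks were fewer and longer across the genome. The largest stretch ran from 174.7 to 205.9 kb into the gene, on chromosome 7 from 75271681 to 75302863. Here H3K27ac covered 21921 bp in the mutant and 17979 bp in WT, and H3K4me1 9775 bp in the mutant and 14005 bp in WT. H3K4me3 covered 6743 bp of it in the mutant and 4544 bp in WT. The RefSeq table places a pair of non-coding RNA genes, Gm51487 and Gm51488, within Igf1r, but on another build, so their place in this stretch is not given.

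Within the largest stretch the longest acetylated peak was 9090 bp in the mutant, from 75272142 to 75281231, and 7563 bp in WT, from 75273054 to 75280616. Its mutant score of 2624 was the best of all mutant H3K27ac peaks at the IGF genes, above 98.4% of the mutant list. In WT the best H3K27ac peak of the gene was that of the promoter, with a score of 2192. WT H3K4me1 over 3924 bp of this peak, from 75274964 to 75278887, had no mutant H3K4me1 within 1000 bp, although H3K27ac covered all 3924 bp in both genotypes. Further along, a mutant H3K27ac peak of 7297 bp from 75288709 stood where WT had peaks of 3494 and 1202 bp. At 186.4 to 188.0 kb the mutant had H3K27ac over 1653 bp and H3K4me1 over 1154 bp where the WT lists had neither. The reverse was seen at 204.9 to 205.9 kb, with 950 bp of H3K27ac in WT and no mutant H3K27ac peak within 1000 bp. At the other sites named in this stretch acetylation was longer in the mutant list. That list as a whole covered about as much as that of WT, in fewer peaks. Over Igf1r and its flanks 4 of 17 mutant H3K27ac peaks had no WT peak, against 18.4% of the list. Of the 20 WT H3K27ac peaks there 3 had no mutant peak, against 24.1% of the list.

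Smaller stretches showed the same and the opposite order. At 106.8 to 111.6 kb, H3K27ac covered 3256 bp in the mutant and 2015 bp in WT, and H3K4me1 0 bp in the mutant and 2785 bp in WT. At 211.3 to 213.5 kb, H3K27ac covered 2149 bp in the mutant and 1110 bp in WT, and H3K4me1 0 bp in the mutant and 1887 bp in WT. Both stretches thus had H3K4me1 in WT alone and somewhat longer H3K27ac in the mutant. The stretch at 32.5 to 34.5 kb went the other way. It had H3K4me1 over 1726 bp in the mutant and 0 bp in WT, H3K4me3 over 0 bp in the mutant and 1174 bp in WT, and H3K27ac over 1289 bp in the mutant and 1889 bp in WT. The farthest stretch, 323.3 to 335.9 kb from the 5′ end and partly beyond the 50 kb flank, had 12561 bp in the mutant, as 1 peak, and 10327 bp in WT. In the RefSeq order the genes Pgpep1l and Fam169b follow Igf1r on this side.

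**Figure D4:**
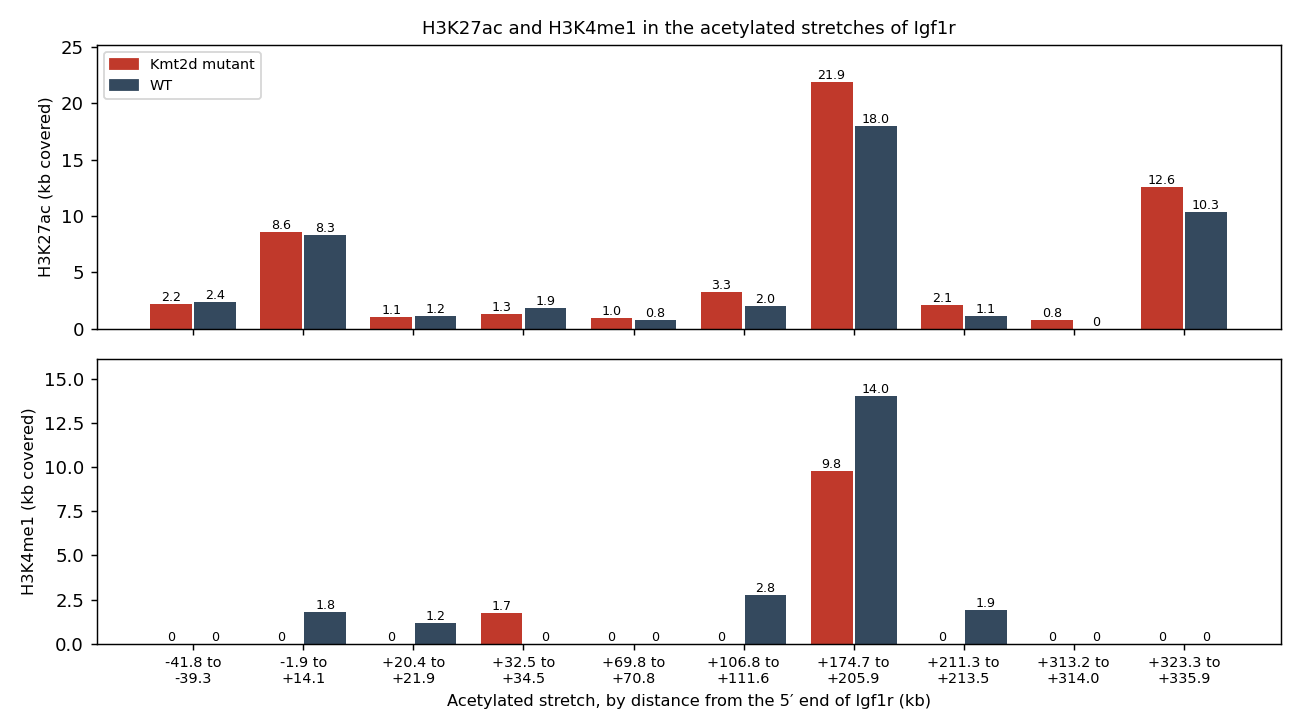
Length covered by H3K27ac (upper panel) and H3K4me1 (lower panel), in kb, in each of the 10 acetylated stretches of Igf1r, in the mutant (red, left bar) and in WT (dark, right bar), 1 library per bar. In the stretch from 174.7 to 205.9 kb H3K27ac is the longer in the mutant and H3K4me1 the longer in WT.

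Classed by marks, H3K27ac peaks at Igf1r without H3K4me3 that overlapped H3K4me1 numbered 3 in the mutant and 6 in WT. In the mutant, 2 of the 6 WT sites had both H3K27ac and H3K4me1, 3 had H3K27ac without H3K4me1 and 1 had no H3K27ac. Over the whole lists, 5003 WT peaks were of this class, of which 29% had both marks in the mutant, 53.3% had H3K27ac without H3K4me1 and 17.7% had no H3K27ac. With 6 sites, shares this near to those of the list set Igf1r apart in no way. H3K27ac without H3K4me3 numbered 11 peaks in the mutant and 13 in WT. No other IGF gene had an H3K27ac peak of this class with H3K4me1 in either genotype.

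H3K27me3 lay upstream of Igf1r in both genotypes and covered more in the mutant. Upstream of the gene it covered 22363 bp in 8 mutant peaks, against 6156 bp in 6 WT peaks. With only peaks of −log10 q from 5 it was 18438 bp in the mutant and 0 bp in WT, where the one WT peak left, of 922 bp, lay downstream. The same limit was put on both lists, though the median −log10 q was 4.18 in the mutant list and 3.89 in the WT list. The longest WT peak upstream, of 1898 bp, had 4.83 and so fell just short. With lists of equal number the upstream lengths stayed at 22363 bp in the mutant and 6156 bp in WT. The mutant peaks reached from 37.0 to 2.4 kb upstream of the 5′ end, and the longest of them spanned 8863 bp from 75085739 to 75094601, ending 2.4 kb short of the gene. In the same place WT had 3 peaks of 709, 705 and 1834 bp. No H3K27me3 overlapped the gene itself in either list. The ratio over gene and flanks was 3.27, against 1.36 over the whole lists, and most of the H3K27me3 difference at the IGF genes came from here. Of the 18 mutant H3K27me3 peaks at the 6 genes 10 had no WT peak, which is 55.6% (30.8 to 78.5), against 49.9% of the whole mutant list.

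The adaptor genes differed from each other. Irs1 had less covered length of H3K79me2 and H3K27ac in the mutant and more H3K27me3. Its H3K4me3 differed little, with 6591 bp in the mutant and 7054 bp in WT. H3K79me2 over Irs1 and its flanks covered 13041 bp in 10 mutant peaks, against 26093 bp in 16 WT peaks, a ratio of 0.500. The ratio was 0.0546 with only peaks of −log10 q from 5, which left 1153 bp in the mutant and 21128 bp in WT. That limit lies close to the median −log10 q of the lists, 5.06 in the mutant and 5.20 in WT. With lists of equal number the ratio was 0.523. Within the gene on chromosome 1 H3K79me2 covered 5778 bp in the mutant and 19337 bp in WT, which is 9.96% and 33.3% of the gene. The longest WT peak, of 5495 bp from 82272710 to 82278204, was overlapped by 2 mutant peaks of 1205 and 440 bp. WT peaks of 1667 and 1520 bp farther into the gene, from 82245629 and from 82267134, had no mutant peak within 1000 bp. In the upstream flank, on which side the RefSeq table has the neighbouring gene Rhbdd1, the lengths were close, with 7263 bp in the mutant and 6756 bp in WT. With only the stronger peaks they were not, with 1153 bp in the mutant and 6756 bp in WT.

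At the 5′ end of Irs1 H3K4me3 was alike, with 3111 bp in the mutant and 3199 bp in WT. H3K27ac was listed there in WT over 1669 bp, from 82286635 to 82288303, with a score of 150, and not in the mutant. H3K27me3 over the same place covered 4294 bp in the mutant, from 82286188 to 82290481, and 2036 bp in WT, from 82286777 to 82288812. H3K4me3 and H3K27me3 overlapped over 2743 bp in the mutant and 1775 bp in WT. A second acetylated site, within the gene and 6.9 kb from its 5′ end in the mutant, was present in both genotypes, with 1566 bp of H3K27ac in the mutant and 1480 bp in WT, and with H3K4me3 in both. Upstream, 24.4 kb from the 5′ end, H3K4me3 and H3K27ac stood together in both genotypes, with 1716 bp of H3K27ac in the mutant and 1901 bp in WT. Of the 3 acetylated sites of the Irs1 locus in WT, the one at its 5′ end was the one without a mutant peak, but this rests on weak peaks. With only peaks scoring from 200 no acetylated peak was left at the 5′ end in either genotype, and the site within the gene was left in WT alone (score 125 in the mutant and 205 in WT). Over gene and flanks H3K27me3 covered 7296 bp in the mutant and 2241 bp in WT, and with only peaks of −log10 q from 5 it covered 4294 bp in the mutant and 205 bp in WT. Irs1 had no H3K4me1 in either genotype.

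The lengths covered by H3K4me3, H3K27ac and H3K79me2 over Irs2 and its flanks were alike in both genotypes. H3K4me3 covered 7604 bp in the mutant and 7479 bp in WT on chromosome 8, at a score of 3100 in both. H3K27ac at the 5′ end covered 4304 bp in the mutant and 3497 bp in WT, with a score above 77.8% of the mutant list and 94.6% of the WT list. H3K79me2 covered 22438 bp in 1 mutant peak, and 20898 bp in WT in 2 peaks, which left 95.9% of the gene covered in the mutant and 89.2% in WT. Over gene and flanks these 3 marks differed by less than 1.5-fold, while on the gene span alone H3K27ac covered 1992 bp in the mutant and 968 bp in WT. A further 3 H3K27ac peaks downstream numbered the same in both genotypes. Of these, 1 did not overlap between the lists, with 780 bp in the mutant and 1188 bp in WT. The pair lay side by side, the WT peak ending at 10965530 and the mutant peak starting at 10965533.

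The marks that differed past 1.5-fold at Irs2 were H3K4me1 and a sparse H3K27me3. H3K4me1 covered 4219 bp in 1 mutant peak, against 11529 bp in 6 WT peaks, a ratio of 0.366 that became 0.649 with only the stronger peaks or lists of equal number. The main WT peak, 6497 bp from 11000700 to 11007196, just inside the gene, had a score of 1507, above 99.7% of the WT H3K4me1 list. The mutant peak, from 11002812 to 11007030, lay wholly within it and had a score of 210, above 82.5% of the mutant list. The other 5 WT H3K4me1 peaks, between 809 and 1271 bp long, had no mutant peak and overlapped no H3K27ac of either genotype. H3K27me3 covered 1421 bp in 2 mutant peaks and 497 bp in 1 WT peak, all of them upstream and none nearer than 22.5 kb to the gene. With lists of equal number it was 943 bp in the mutant and 497 bp in WT, too little to count as a difference.

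**Figure D5:**
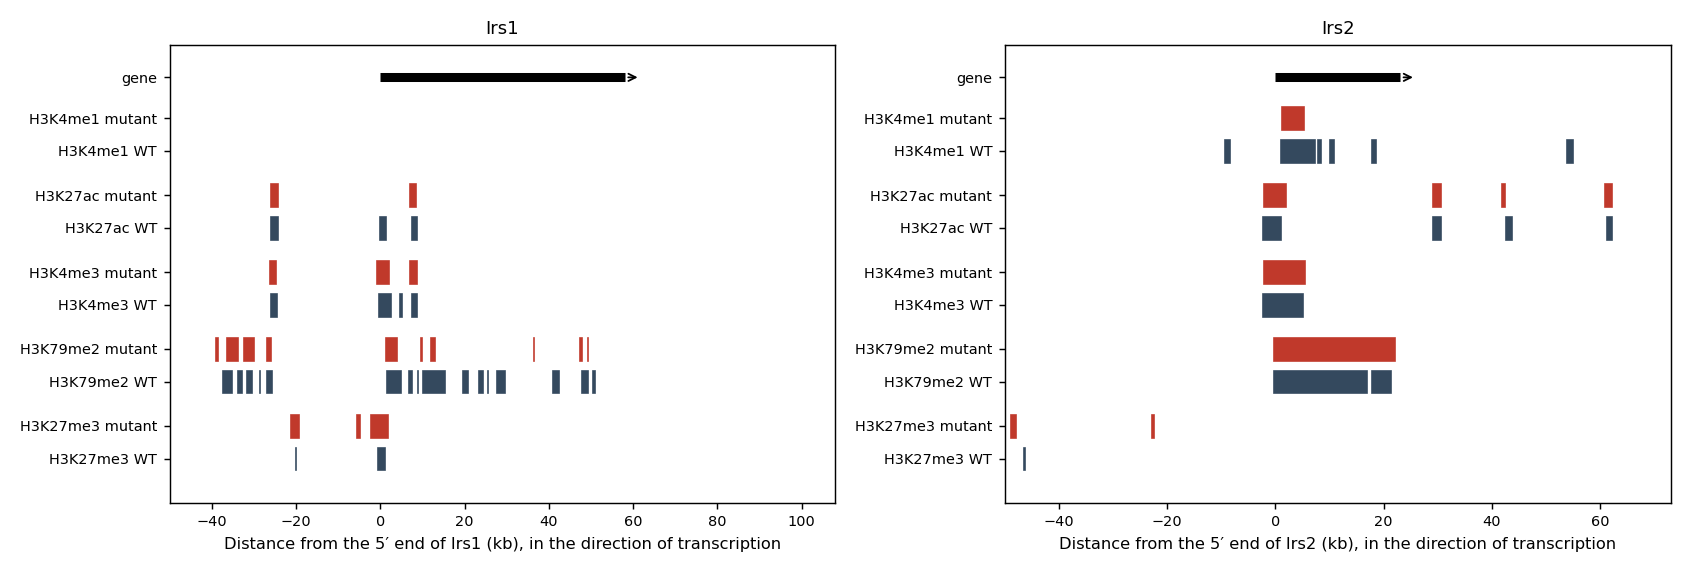
Peaks of the 5 marks at Irs1 (left) and Irs2 (right), mutant (red) above WT (dark) for each mark, 1 library per row, by distance in kb from the 5′ end of the gene (black bar, arrow in its direction). H3K79me2 is sparser over Irs1 in the mutant and spans Irs2 in both genotypes, and the H3K27ac peak at the 5′ end of Irs1 is in the WT row alone.

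Summed over the 6 genes, H3K4me1 covered 17102 bp in the mutant and 43089 bp in WT, a ratio of 0.397 that became 0.678 with lists of equal number. H3K27ac covered 63361 bp in the mutant and 55267 bp in WT (ratio 1.15), and H3K4me3 37699 bp in the mutant and 34687 bp in WT (ratio 1.09). H3K79me2 covered 221868 bp in the mutant and 242380 bp in WT (ratio 0.915). H3K27me3 covered 44723 bp in the mutant and 19972 bp in WT (ratio 2.24). That ratio was 3.57 with only stronger peaks, of −log10 q from 5, and 1.33 on gene spans without flanks. Igf1r made up the larger part of each sum except those of H3K4me3 and of WT H3K27me3, so the sums mostly describe that gene. Of the WT peaks at the 6 genes, 18.5% of 27 H3K27ac peaks (6.30 to 38.1) had no mutant peak, against 24.1% of the list. The same held for 15.4% of 13 H3K4me3 peaks (1.92 to 45.4), against 11.3%, and 37.1% of 35 H3K79me2 peaks (21.5 to 55.1), against 36.8%. For H3K27me3 it was 26.7% of 15 WT peaks (7.79 to 55.1), against 35%. Each of these intervals holds the share of the whole list. They are wide and treat peaks as independent, although Igf1r alone gave 20 of the 27 WT H3K27ac peaks. They therefore do not show that the genes follow the lists. Of the mutant peaks at the 6 genes, 3 of 9 H3K4me1 peaks, 6 of 24 H3K27ac peaks, 1 of 12 H3K4me3 peaks and 4 of 34 H3K79me2 peaks had no WT peak, against 27.9%, 18.4%, 6.18% and 15.3% of the lists.

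The limit of 50 kb was set by position. The farthest peaks inside it were a mutant H3K27me3 peak of 943 bp, 48033 bp from Irs2, and a WT H3K27ac peak of 5594 bp, 46938 bp from Igf1r. The nearest outside were a WT H3K27ac peak of 951 bp, 52918 bp from Igf1r, and a mutant H3K27ac peak of 3778 bp, 58137 bp from Irs2.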

How the data were processed

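Histone-mark ChIP-seq libraries of Kmt2d mutant and WT mouse melanoma cells were analysed from 10 deposited peak lists, each called, per the file names, in a single library against a control library. The submitters' processing notes give Bowtie, MACS, MACS2 and deepTools as tools and mm9 as the build, with no version or role. For H3K4me1, H3K27ac and H3K4me3 the authors deposited a MACS score per peak, read here as 10 times the −log10 of p. For H3K79me2 and H3K27me3 the authors deposited, per MACS2 broad peak, a fold enrichment (ratio), −log10 p and −log10 q, and a score that is 10 times −log10 q. All of these are the authors' values. Ranks by score were taken within a list. The limits for stronger peaks put the same score on the mutant and the WT list, so lengths under them rest on scores compared across lists. Depth is unknown, so a longer list may hold weaker sites.

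Gene spans on mm9 were given to the nearest 1 kb, and strand was taken from RefSeq. Covered length was the union of a gene's peaks, limited to the gene and 50 kb on either side. Peaks overlapping by at least 1 bp were shared. Intervals on shares are exact (Clopper-Pearson, 95%) and cover counting error only. Peaks named singly were the best by score per gene, mark and genotype, those at 5′ ends, and the best 2 of at least 1000 bp without a peak of the other genotype within 1000 bp. Other peaks, the acetylated stretches and the CG counts were chosen after their values were seen. The genes, lists and alternatives were chosen with earlier results of these data known. Lists of other IGF pathway genes and of cell type markers were not run, since no mm9 annotation was used. The software was Python 3.11.15 with numpy 2.4.6 and scipy 1.17.1, and matplotlib 3.10.9 for plots; the interval code was tested on 20 simulated pairs of lists.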

Additional observations from a re-analysis of the deposited data

How the results depend on the processing

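Results were recomputed with only stronger peaks (MACS score from 200, −log10 q from 5), with the longer list of each mark shortened to its strongest peaks until both held the same number, with flanks of 25 kb, on gene spans alone, and with 2 other rules for shared peaks (50% of the WT peak covered, or peaks within 1000 bp). The limits for stronger peaks are the same score in both lists and need not keep the same share of each. No whole-list ratio under these limits is given here. With only stronger peaks the H3K27me3 ratio at the 6 genes was 3.57, and the shares of WT peaks without a mutant peak were 62.5% for H3K4me1 (5 of 8) and 75% for H3K27me3 (3 of 4). With lists of equal number the H3K4me1 ratio was 0.678 and the H3K4me1 share 62.5%. On gene spans alone the H3K27me3 ratio was 1.33, because the peaks upstream of Igf1r lie in the flank, and the H3K27me3 share was 0% (0 of 5, which allows a share of up to 60% when 3 counts are taken as the limit of a count of 0). The other ratios summed over the 6 genes stayed within 1.5-fold of their values and the other shares within their intervals. For single genes the ratios moved more. With only stronger peaks Irs1 H3K79me2 was at 0.0546, Irs1 H3K27me3 at 20.9, Igf1r H3K27me3 had 18438 bp in the mutant and 922 bp in WT, Igf1 H3K4me3 had 2405 bp in the mutant and 0 bp in WT, and Igfbp5 H3K27me3, under 1.5-fold before, had 0 bp in the mutant and 2380 bp in WT. The 10 differences past 1.5-fold kept their sign, or came to 0 bp in both genotypes where no peak was left. With lists of equal number Igf1r had 12883 bp of H3K4me1 in the mutant and 18736 bp in WT, under 1.5-fold, while H3K4me1 at Irs2 stayed past it. The H3K79me2 peaks of Igfbp5 were then gone, and H3K27me3 at Irs2 had 943 bp in the mutant and 497 bp in WT. With flanks of 25 kb H3K27me3 at Irs2 had 478 bp in the mutant and 0 bp in WT. On gene spans alone H3K27me3 at Irs1 had 1813 bp in the mutant and 1224 bp in WT, Irs1 H3K79me2 was at 0.299, Irs2 H3K27ac had 1992 bp in the mutant and 968 bp in WT, and Igf1r and Irs2 had no H3K27me3. With only stronger peaks none was left for H3K79me2 at Igfbp5 or for H3K27me3 at Igf1 and Irs2 in either genotype. No paired analysis was possible because each genotype and mark had 1 library. Without read counts, a site missed for lack of depth and a site without the mark look alike.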

Other observations

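The promoter windows of 3 of the 6 genes hold the palindrome CACGTG, an E-box letter pattern (read on both strands alike), in the 250 bases before the start. The 6 genes have 7 windows, and the second window of Igfbp2 lacks the motif. Of 32851 RefSeq promoter windows 6.02% hold it, which counts windows and not genes. The motif contains CG, and the windows with it hold 34 (Irs2), 28 (Irs1) and 14 (Igfbp2) CG pairs, against a median of 6. The share over all windows is therefore no matched background, and no enrichment is read from it. The motif was noticed on reading the sequences and was not tested. It begins 44 bases before the start in Irs2, 115 before it in Irs1 and 142 before it in Igfbp2. The 30 bases around it, with the motif in capitals, are shown because those of Irs1 and Irs2 look alike beyond it. They are chr8:11008956-11008985 on the minus strand for Irs2, chr1:82291537-82291566 on the minus strand for Irs1 and chr1:72824326-72824355 on the plus strand for Igfbp2, all on GRCm38.p6.
Irs2: gtaacgcagagtCACGTGttgttttgctct
Irs1: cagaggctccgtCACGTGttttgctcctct
Igfbp2: cgtgtgcacaagCACGTGccctcacgcaag
The 5′ end of Irs2 was acetylated in both genotypes, that of Irs1 in WT alone, and that of Igfbp2 in neither. Of the genes without the motif, Igf1r was acetylated there in both genotypes, and Igf1 and Igfbp5 in neither. A link between the motif and acetylation was not tested.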
